A study of Mus musculus with 18 samples.

Results

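The livers of Hmgn1 knockout-labelled mice that had received N-nitrosodiethylamine (DEN) were compared with the livers of uninjected knockout-labelled mice at 4 weeks. The comparison takes the 3 arrays whose titles name DEN and 12 weeks and the 3 whose titles name no injection and 4 weeks, 6 of the 18 arrays of the series, and covers every probe set that is not a control. All animals were male. The knockout-labelled mice carry Hmgn1-/- and the wild-type mice Hmgn1+/+; both descend from heterozygous crosses and were then bred apart as homozygous lines, so genotype differences may reflect Hmgn1 or any other locus at which the lines have drifted apart. The 6 groups, each of 3 arrays, are knockout DEN, knockout 4 weeks, wild-type DEN, wild-type 4 weeks, and the saline-injected livers of both genotypes. The DEN dose was 10 µg per g, injected when the mice were 4 weeks old. The series text reads as collection 12 weeks after that injection, but the titles leave the starting point of the 12 weeks unstated, which makes the age at collection uncertain. The control livers here are younger and were not injected. The effect of DEN and the effect of growing older therefore cannot be told apart in any value of this comparison. Nothing in the labels states that each array is a separate animal, and p-values accordingly describe the spread among these samples, which may be technical.

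Hmgn1 encodes a small chromosomal protein that binds nucleosomes and loosens the packing of chromatin. DEN is a nitrosamine that becomes reactive once cytochrome P450 enzymes of the hepatocyte, mainly Cyp2e1, hydroxylate it; the product alkylates DNA, and a dose given to young male mice is a classical way to start liver tumours. Between weaning and adulthood the liver also takes on its mature programme, under growth hormone, bile acid signalling, feeding and the circadian clock, while Kupffer cells, its resident macrophages, settle in the sinusoids.

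Values are MAS5 signals on a linear scale, and differences are log2 differences of the signal plus 16, knockout DEN minus knockout 4 weeks, which understate the change of dim genes. A difference is said to have risen or fallen where the limma p-value, adjusted by Benjamini-Hochberg over the 27022 tested probe sets, was under 0.05 (two-sided). SE is the error of the fitted difference, with n = 3 arrays per group throughout. A signal compares a gene across arrays and not with another gene.

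The 2 groups differed in a measure of RNA integrity. The ratio of the 3′ to the 5′ control probe set of Gapdh, which grows as RNA degrades, was 0.937, 0.907 and 0.926 in the knockout DEN arrays and 1.70, 1.35 and 1.45 in the knockout 4-week arrays. The groups did not overlap (0.924 ± 0.0151 against 1.5 ± 0.184, mean ± SD, n = 3 each), and the exact two-sided permutation p was 0.1, the smallest that 3 against 3 arrays allow. The Actb ratio was split in the same way, at 2.82, 3.05 and 2.88 with DEN and 5.05, 4.00 and 4.13 at 4 weeks. Because this ratio moves with the group, its part in the differences below cannot be told apart from that of DEN and age.

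Replicate 1 of the knockout DEN group also carried transcripts of neighbouring tissues. Star, the cholesterol importer of steroid-making cells, had 1185, 34.4 and 9.22 in the knockout DEN arrays and 28.6, 12.3 and 20.5 at 4 weeks. Cyp11b1, an adrenal steroid hydroxylase, had 759 in that array, against 1.27 and 13 in the other DEN arrays. Adipoq, the fat cell hormone adiponectin, had 864, 10.8 and 18 with DEN and 15.2, 9.16 and 17.2 at 4 weeks. Fabp4, the fatty acid carrier of adipocytes, had 4499, 325 and 357 with DEN and 291, 296 and 310 at 4 weeks. Among the 6 compared arrays only the first DEN array was high in each case, and none of the adipose (0 of 5) or kidney and adrenal (0 of 7) genes tested was called. Replicate 2 of the knockout saline group, which enters the shared estimate of the spread, carried the same transcripts, with 801 for Star, 384 for Cyp11b1, 463 for Adipoq and 2851 for Fabp4. Without that saline array 2053 probe sets were called in the comparison described here, and without it and the first DEN array 1663, against 2226 with all arrays. Without the first DEN array alone, 98 of the 125 called genes named here by rule kept their call and all 125 kept their sign.

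**Figure D1:**
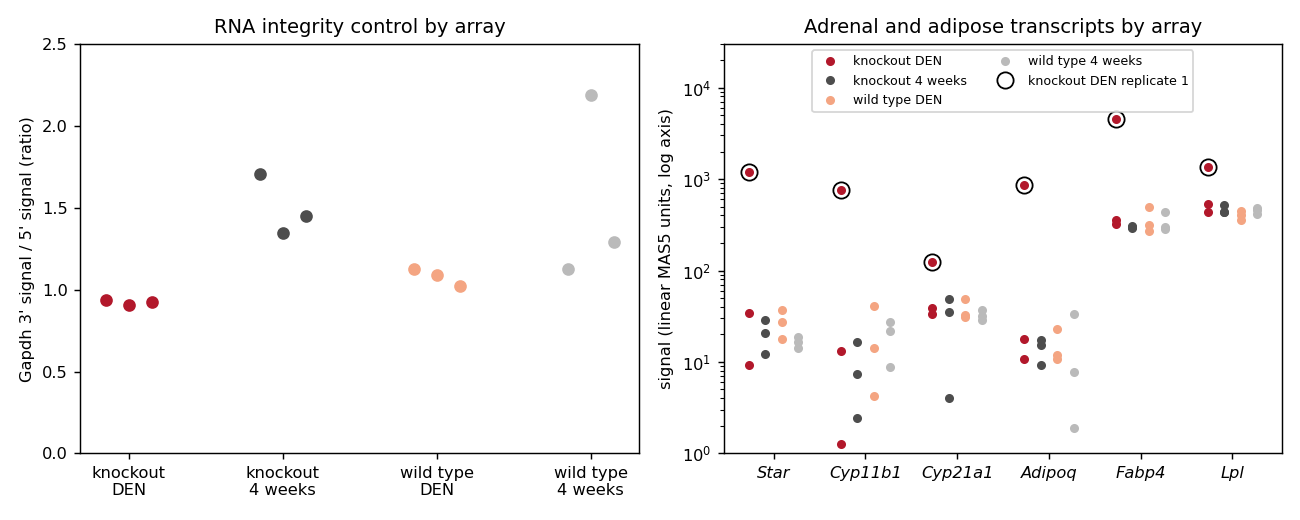
The left panel plots the Gapdh 3′ to 5′ signal ratio of each array by group, with knockout DEN at 0.907 to 0.937 and knockout 4 weeks at 1.35 to 1.70. The right panel plots the linear signal, on a log axis, of 6 adrenal and adipose transcripts in each array of 4 groups; the ringed points are replicate 1 of the knockout DEN group, which stands far above every other array drawn for Star, Cyp11b1, Adipoq and Fabp4.

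Defining hepatocyte markers were present in every array. Alb, serum albumin, had 38189, 39768 and 37176 in the knockout DEN arrays and 40955, 36804 and 38416 at 4 weeks. The summed signal of the hepatocyte markers ranged from 262180 to 277080 with DEN and from 265090 to 281370 at 4 weeks, so the groups overlapped. Of the 12 hepatocyte markers, 2 fell and none rose, beside 4.47% of all genes called lower and 4.32% higher; both, Tat and Hnf4a, are described below. Hmgn1 (chromosome 16, 96121588 to 96127725 of build GRCm38.p6) was not lower in the arrays labelled knockout than in wild type. Its probe set of highest mean had 5631, 6894 and 6401 with DEN and 6864, 6667 and 6503 at 4 weeks, a difference of -0.09 (SE 0.10, limma adjusted p = 0.669), beside 6463, 5392 and 6983 with DEN and 6083, 7948 and 6724 at 4 weeks in wild-type livers. All 4 groups overlapped. A second probe set of the gene had 2410, 2297 and 2164 with DEN and 1615, 1802 and 1558 at 4 weeks and rose by 0.46 (limma adjusted p = 0.00566). Neither the deleted stretch nor the place of these probes within the gene is given in the sources used here, so the signals do not test the labels, and knockout is used here as the label of these arrays. None of the 6 tested HMG family genes was called.

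Of the 27022 probe sets tested, 2226 differed (8.24%), 954 higher and 1272 lower with DEN. Counted once per gene, 1133 of 12896 genes differed (8.79%), 557 of them higher (4.32%) and 576 lower (4.47%), and the median difference over all genes was 0.00. These 2 shares, 4.32% higher and 4.47% lower, are the background for each list count below. Without replicate 1 of the DEN group, 465 genes were higher (3.61%) and 523 lower (4.06%). The number of calls depended on single arrays and on the integrity measure. Left out in turn, the 6 arrays gave 784 to 1911 called probe sets, the lowest without replicate 1 of the 4-week group and the highest without replicate 1 of the DEN group. With the Gapdh ratio as a covariate, 8 probe sets were called, and 6 of them were among the 2226; Dnajb9, Id1, Cish and Ngfr, described below, are among these. All 125 called genes named here by rule kept their sign with that covariate, 4 kept their call, and the difference of 38 moved by over 1.5 times.

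The 15 largest rises and 15 largest falls among called genes whose 6 arrays did not overlap are drawn by array below. Left out in turn, the 6 arrays changed no call of 13 of the rises and of 11 of the falls. Dbp lost its call in 5 of the 6 and Igfbp1 in 5 of the 6; Esm1, Bpifb1 and Fos lost it in at least 1, and Mx2 fell under the signal filter in 1. The rise of Rpl41, a ribosomal protein, is uncertain, because the 3 other tested probe sets of the gene gave -0.57, -0.39 and 0.31.

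**Figure D2:**
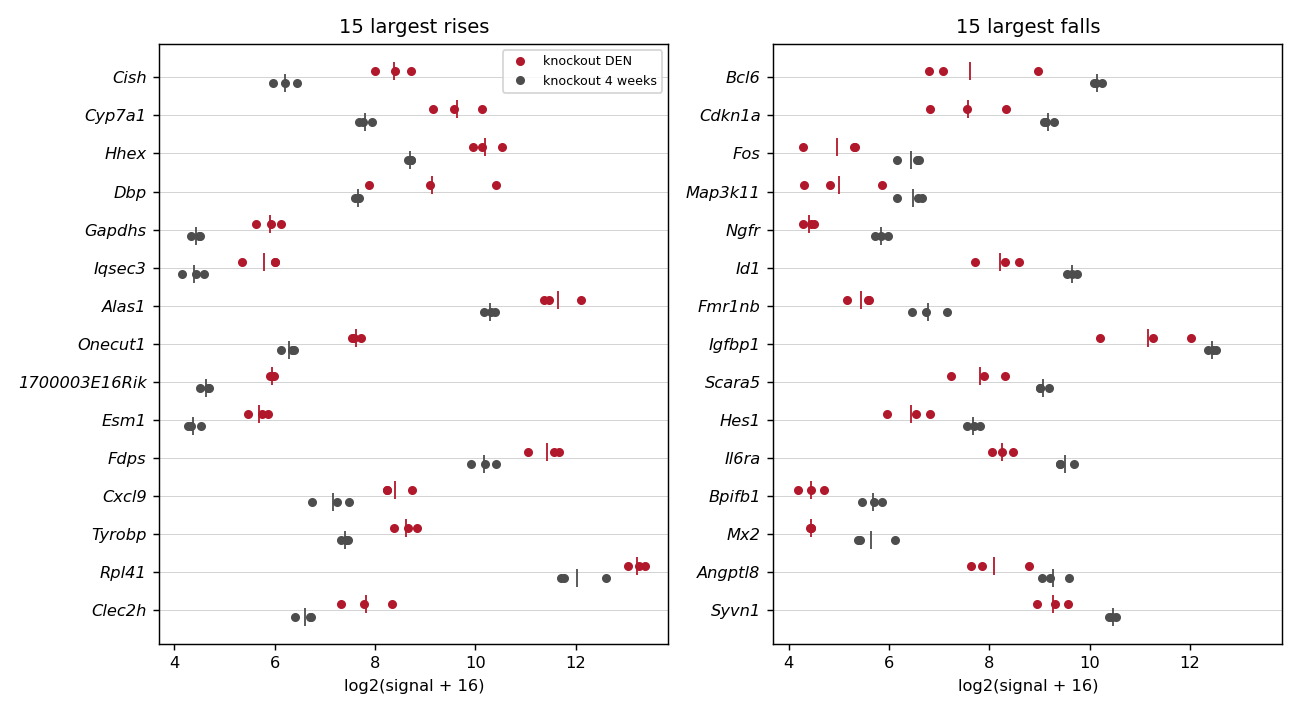
Each point is the log2(signal + 16) of 1 array for the 15 genes with the largest rise (left) and the 15 with the largest fall (right), knockout DEN above knockout 4 weeks in each row; vertical ticks are group means. The groups do not overlap in any row, as the choice of these genes required, and within the DEN arrays the spread is wide for Dbp, Bcl6 and Igfbp1.

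Markers of Kupffer cells and macrophages were higher with DEN. Of 26 tested, 13 rose and none fell, 25 of the 26 differences were positive, and their median was 0.51, beside 4.32% of all genes called higher and a median of 0.00. Tyrobp, the signalling adaptor of activating receptors on myeloid cells, had 318, 388 and 438 in the knockout DEN arrays and 144, 160 and 154 at 4 weeks. All 3 DEN values lay above all 3 younger ones, and the difference was 1.22 (SE 0.16, limma adjusted p = 0.000149). Lyz2, the lysozyme of macrophages and granulocytes, had 911, 919 and 1009 with DEN and 426, 375 and 417 at 4 weeks, a rise of 1.19 (SE 0.16, adjusted p = 0.000326). Here too the groups stood apart, with little spread inside either. Its near-identical neighbour Lyz1 gave 1.18 (adjusted p = 0.000104), but probes can bind both transcripts, and the other tested probe sets of Lyz1 gave 1.96 (adjusted p = 0.00136) and -0.55 (adjusted p = 0.272).

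Receptors and complement genes of resident macrophages followed the same order. Vsig4, the complement receptor by which Kupffer cells take bacteria from the blood, had 613, 1057 and 1292 with DEN and 479, 451 and 423 at 4 weeks, a rise of 1.04 (SE 0.23, adjusted p = 0.009). C1qa, a chain of the complement starter C1q, had 380, 584 and 640 with DEN and 280, 324 and 249 at 4 weeks, a rise of 0.85 (SE 0.16, adjusted p = 0.00296). Csf1r, the growth factor receptor on which macrophages depend, had 1732, 2129 and 2317 with DEN and 1537, 1577 and 1445 at 4 weeks, a rise of 0.43 (SE 0.10, adjusted p = 0.0115). For all 3 genes the first DEN array was the lowest of its group, yet above the younger arrays. Cd68, Adgre1, Cd5l, C1qc, Fcer1g, Ctss and Clec4f also rose, by 0.80, 0.77, 0.67, 0.64, 0.62, 0.57 and 0.53. Timd4, a receptor for dying cells on embryo-derived Kupffer cells, gave 0.56 without passing the test, and Ccr2, a monocyte chemokine receptor, was the only negative member at -0.53, also short of the threshold.

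The summed signal of 28 macrophage genes ranged from 11896 to 16297 in the knockout DEN arrays and from 8562 to 8975 at 4 weeks. In bulk tissue, more cells of a type and more RNA per cell cannot be told apart. The list held 9 to 16 rising members when each of the 6 arrays was left out, and 16 without the DEN array that carried adrenal and adipose transcripts. With the Gapdh ratio as a covariate the median was 0.44 and no member was called. No tested marker was called among 7 of T and NK cells, 10 of B and plasma cells, 9 of neutrophils, 23 of endothelial cells or 6 of erythroid cells. The summed B and plasma cell signal was 411 to 455 with DEN and 274 to 336 at 4 weeks, and that of T and NK cells 306 to 395 with DEN and 248 to 282 at 4 weeks. Both sums were apart without overlap, at low signals. Of 7 tested cholangiocyte markers, Anxa5 rose by 0.43 and Sox9 fell, and 5 of the 7 differences were negative (median -0.06). The summed signal was 1395 to 1659 with DEN and 1182 to 1223 at 4 weeks, again without overlap. Most of that sum was Anxa5, with 1468, 1145 and 1204 with DEN and 942, 921 and 939 at 4 weeks. The sum therefore does not describe the other markers. The 5 tested adipose genes were all positive (median 0.88, or 0.03 without the first DEN array) and none was called. Adipoq, Fabp4 and Retn (403, 6.28 and 10.5 with DEN) were high in the first DEN array alone. Cidea had 55.9, 47.3 and 54.4 with DEN and 13.7, 27.7 and 23.9 at 4 weeks, so it was not confined to that array. Car3 was not highest there either (34168, 36206 and 30959 with DEN). Of 39 stellate cell and matrix genes, Lum (0.72) and Dcn (0.46, but -0.16 as the mean of its tested probe sets), proteoglycans that bind collagen fibrils, rose, and Ngfr, the low-affinity neurotrophin receptor of quiescent stellate cells, fell.

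Interferon-response genes were mostly higher. Of 32 tested, 9 rose and 1 fell, with a median of 0.27, beside 4.32% of all genes called higher and 4.47% lower. Cxcl9, a chemokine that draws activated T cells, had 409, 285 and 285 in the DEN arrays and 163, 91.1 and 135 at 4 weeks, a rise of 1.24 (SE 0.21, adjusted p = 0.00181). Zbp1, a sensor of unusual nucleic acids, had 51.9, 77.5 and 65.2 with DEN and 22.9, 22.1 and 27.5 at 4 weeks, a rise of 1.0 (SE 0.26, adjusted p = 0.0201). In both, each DEN array exceeded each younger one. A second tested probe set of Cxcl9 gave 0.23 (limma adjusted p = 0.603). Ddx58, the RNA sensor RIG-I, rose by 0.67 and Usp18, a brake on interferon receptor signalling, by 0.64. Mx2, a dim interferon-induced GTPase, fell by 1.21 (5.47, 5.96 and 5.71 with DEN, 53.9, 27.1 and 26.0 at 4 weeks). Left out in turn, the 6 arrays left as few as 5 called members, without replicate 1 or replicate 2 of the 4-week group. Ifi27, Igtp, Irgm2, Ifih1 and Iigp1 were the other members that rose, by 0.63, 0.53, 0.46, 0.37 and 0.27.

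Of the genes called in that list, 5 had a promoter in the RefSeq table used here (build GRCm38.p6, 250 bases before to 50 after the start). The interferon-stimulated element, searched as GAAANNGAAA on both strands, lay in 4 of them (Igtp, Irgm2, Ddx58 and Ifih1), against 3.49% of all 27025 promoters. The list was drawn up as interferon-response genes and its uncalled members were not counted, so this share does not bear on the calls. The same holds for the motif counts of the other lists below. The promoter of Irgm2, an immunity-related GTPase, is shown because the element lies close to the start, at -64 to -55 counted from the start (chr11:58214727-58215026, plus strand), in capitals; a match is a description and not a bound site.
Irgm2: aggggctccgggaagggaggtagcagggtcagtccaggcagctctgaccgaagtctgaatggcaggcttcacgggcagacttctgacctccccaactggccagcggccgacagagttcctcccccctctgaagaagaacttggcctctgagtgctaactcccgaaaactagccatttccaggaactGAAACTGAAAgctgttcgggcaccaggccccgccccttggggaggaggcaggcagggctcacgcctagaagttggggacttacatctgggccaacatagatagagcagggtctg

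Genes of antigen presentation stood on the same side. Of 16 tested, 4 rose and none fell, with a median of 0.20, beside 4.32% of all genes called higher. Psmb9, a catalytic subunit of the immunoproteasome, which cuts proteins into peptides for display, had 224, 191 and 202 in the DEN arrays and 97.8, 96.7 and 108 at 4 weeks, a rise of 0.92 (SE 0.13, adjusted p = 0.00048). The groups did not overlap and each was tight. Psmb8 and Psmb10, the other catalytic immunosubunits, rose by 0.58 and 0.43, and H2-Aa, a class II chain, by 0.53. Without replicate 1 or 3 of the 4-week group, or 2 or 3 of the DEN group, 2 members were called. The acute phase and inflammation list moved both ways, with 7 of 33 higher and 6 lower, beside 4.32% and 4.47% of all genes. Orm2, an acute phase carrier protein, had 166, 246 and 347 with DEN and 113, 105 and 87.7 at 4 weeks and rose by 1.14 (SE 0.21, adjusted p = 0.00247). Lcn2, which binds bacterial siderophores, rose by 0.99 and Cd14, the endotoxin coreceptor, by 0.96. Il6ra, the interleukin-6 receptor chain, had 340, 252 and 287 with DEN and 810, 662 and 666 at 4 weeks, a difference of -1.24 (SE 0.22, adjusted p = 0.002), and Il1r1, an interleukin-1 receptor, gave -1.03 (251, 192 and 263 with DEN, 486, 500 and 490 at 4 weeks). Il6st, the signalling chain that Il6ra shares with other receptors, gave -0.02 (adjusted p = 0.936). The number of called members fell to 6 without replicate 1 of the 4-week group.

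**Figure D3:**
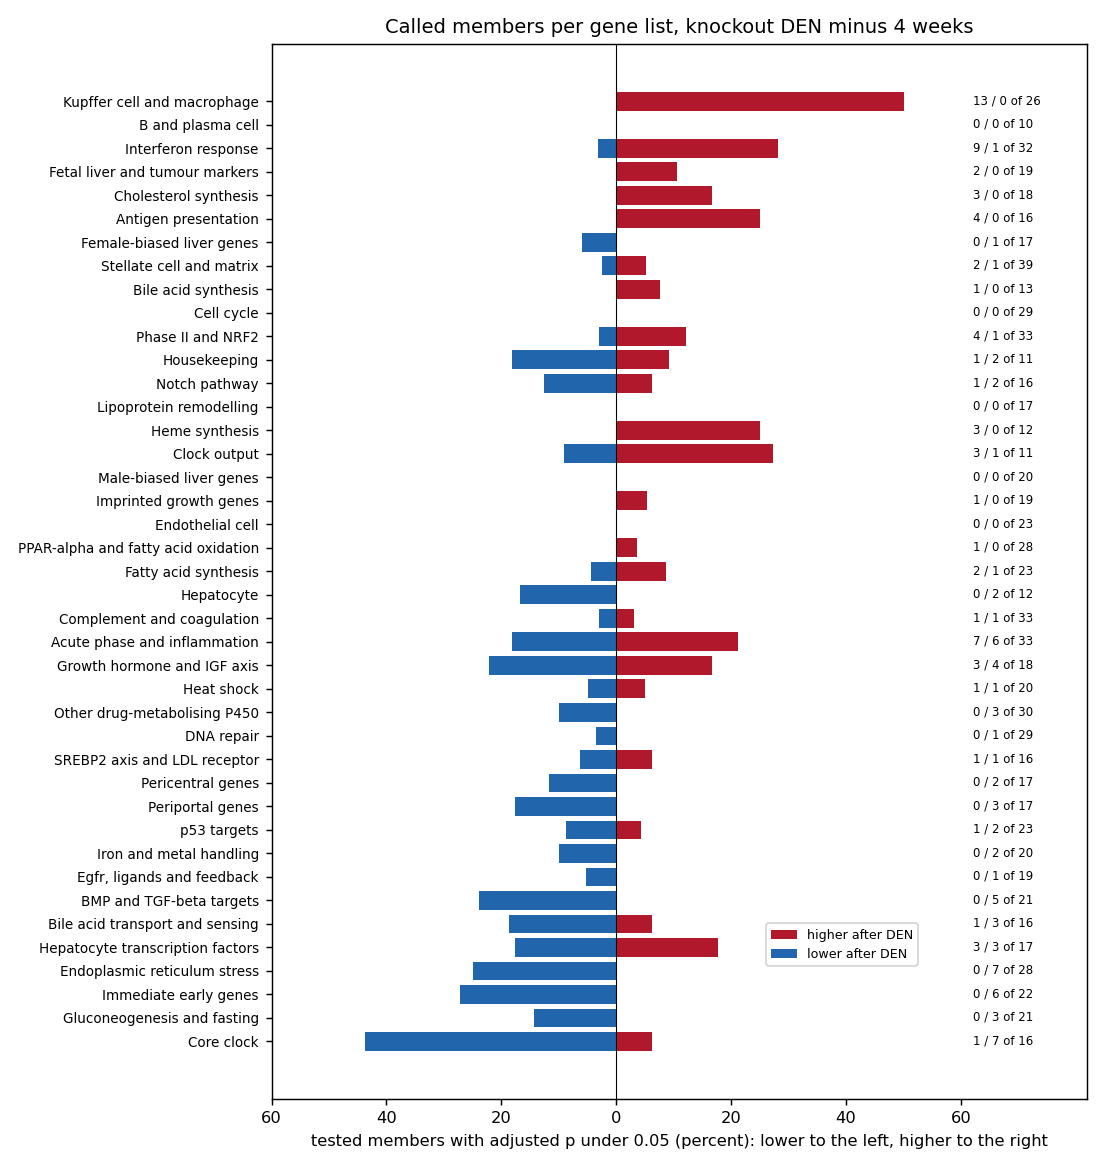
Bars give the percent of tested members called lower (left) or higher (right) in knockout DEN minus knockout 4 weeks for each gene list with at least 10 tested members, ordered by the list's median difference; the text at the right gives higher, lower and tested counts. Kupffer cell and macrophage genes extend farthest to the right (13 of 26) and core clock genes farthest to the left (7 of 16), beside 4.32% higher and 4.47% lower over all genes.

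Endoplasmic reticulum stress genes were lower with DEN. Of 28 tested, 7 fell and none rose, 23 differences were negative and the median was -0.22, beside 4.47% of all genes called lower. Syvn1, the ubiquitin ligase that marks misfolded proteins for export from the endoplasmic reticulum, had 741, 482 and 620 in the DEN arrays and 1461, 1329 and 1388 at 4 weeks. Every DEN array was far below every younger one, with a difference of -1.18 (SE 0.16, adjusted p = 0.000326), and another probe set gave -1.03 (adjusted p = 0.000127). Dnajb9, a cochaperone induced by unfolded proteins, had 1484, 1226 and 1356 with DEN and 2348, 2460 and 2455 at 4 weeks, a difference of -0.83 (SE 0.10, adjusted p = 0.000104). It was among the genes still called with the Gapdh ratio as a covariate. Herpud1, a partner of Syvn1 in protein disposal, gave -0.78 (5387, 3033 and 3307 with DEN, 7506, 5978 and 6182 at 4 weeks), and Hyou1, a chaperone of the lumen, gave -0.76 (547, 474 and 524 with DEN, 891, 786 and 969 at 4 weeks). Sel1l, the scaffold of the Syvn1 complex, and the stress sensors Ern1 and Eif2ak3 fell by 0.55, 0.47 and 0.44. The falls of Herpud1, Hyou1 and Sel1l rest on the probe sets of highest mean. Other tested probe sets gave -0.36, 0.08, 0.11 and 0.31 for Sel1l, -0.23 and 0.11 for Hyou1 and -0.34 for Herpud1. None of these was called (limma adjusted p from 0.117 to 0.863). Hspa5, the chaperone BiP, gave -0.34 (adjusted p = 0.109) and Hsp90b1, another chaperone of the lumen, -0.07 (adjusted p = 0.787), neither past the test. Between 4 and 7 members fell when each array was left out, 4 of them without replicate 1 of the 4-week group.

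The promoter of Syvn1 (RefSeq, GRCm38.p6, chr19:6046326-6046625, plus strand) is shown because it holds the complete endoplasmic reticulum stress response element, CCAAT and CCACG with 9 bases between them, in capitals at -44 to -26. Of the 6 called members of the list with a promoter in the table, Syvn1 alone held it, and 35 of all 27025 promoters did (0.13%, both strands).
Syvn1: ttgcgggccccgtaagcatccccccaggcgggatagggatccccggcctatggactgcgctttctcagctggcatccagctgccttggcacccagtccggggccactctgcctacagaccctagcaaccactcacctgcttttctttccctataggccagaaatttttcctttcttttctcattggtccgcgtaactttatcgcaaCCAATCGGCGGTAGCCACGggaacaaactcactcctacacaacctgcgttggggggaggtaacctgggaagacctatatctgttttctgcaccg

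**Figure D4:**
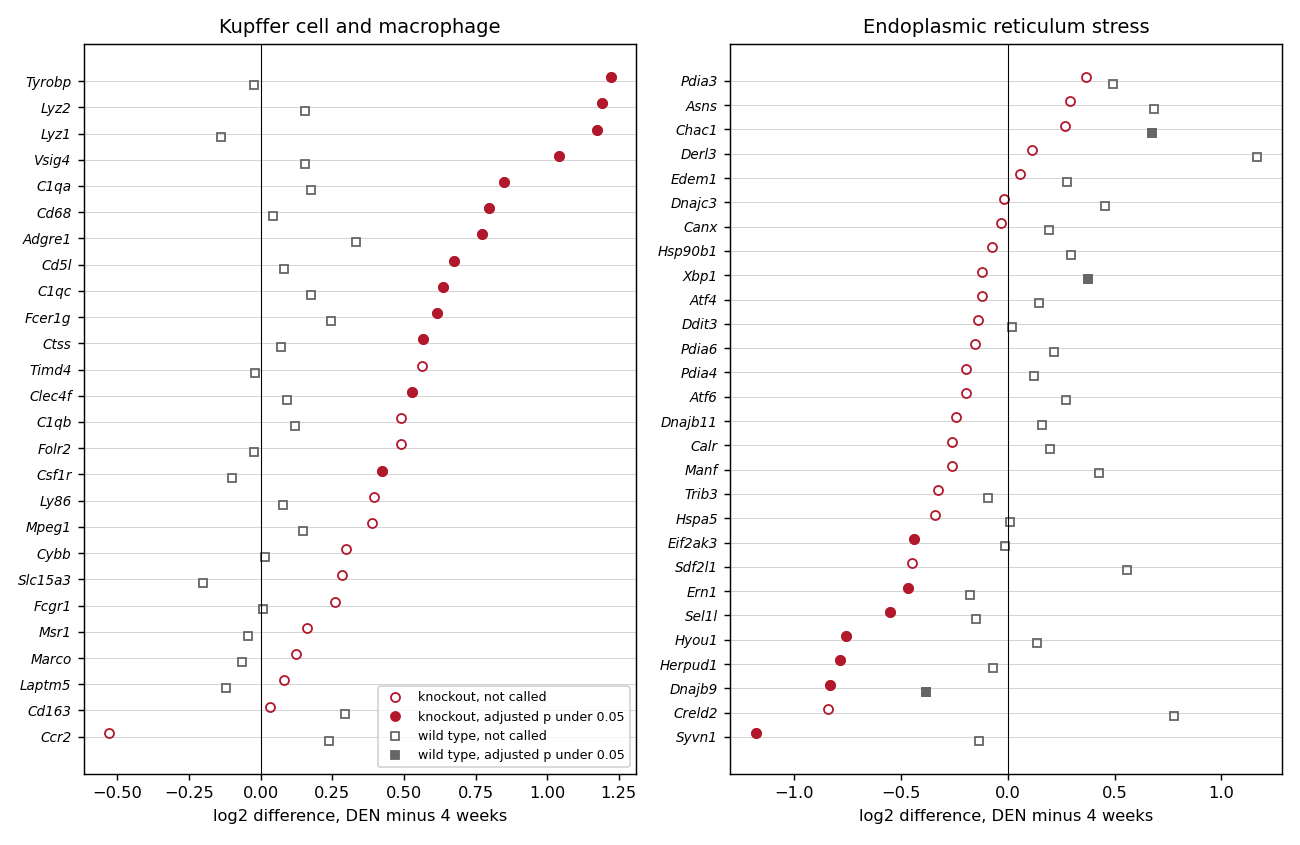
Log2 difference, DEN minus 4 weeks, of each tested Kupffer cell and macrophage gene (left) and endoplasmic reticulum stress gene (right), for knockout-labelled livers (circles) and wild-type livers (squares); filled symbols have an adjusted p under 0.05. In the knockout-labelled livers 13 of 26 macrophage genes were called higher and 7 of 28 stress genes lower, while in wild-type livers none of the macrophage genes was called.

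Immediate early genes, which switch on within minutes of a growth or stress signal, were lower. Of 22 tested, 6 fell and none rose, with a median of -0.31, beside 4.47% of all genes called lower. Fos, a subunit of the transcription factor AP-1, had 23.4, 24.2 and 3.58 in the DEN arrays and 81.6, 56.0 and 79.0 at 4 weeks, a difference of -1.48 (SE 0.33, adjusted p = 0.00974). Dusp1, a phosphatase that ends MAP kinase signals, gave -0.87 (625, 496 and 394 with DEN, 1010, 885 and 872 at 4 weeks). Junb, Jund and Zfp36 fell by 0.72, 0.71 and 0.67, and Ier2 by 0.58. Egr1, a zinc finger factor of the same kind, gave -1.51 without passing the test (adjusted p = 0.0641). Without replicate 1 of the 4-week group 2 members were called, and without replicate 3 of the DEN group 3.

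Of 23 p53 targets, 1 rose and 2 fell, beside 4.32% of all genes called higher and 4.47% lower, so the counts were near the background. Their median was -0.10, or 0.13 with the Gapdh ratio as a covariate. Cdkn1a, the cell cycle inhibitor p21, had 306, 172 and 97.1 in the DEN arrays and 614, 533 and 542 at 4 weeks. The DEN arrays were all lower and spread over a wide range, and the difference was -1.61 (SE 0.31, adjusted p = 0.00441); a second probe set gave -1.29 (adjusted p = 0.026). Sesn2, a stress-induced brake on mTORC1, gave -1.16 (17.4, 44.0 and 41.9 with DEN, 63.4, 153 and 81.3 at 4 weeks). Its other tested probe set gave -0.13 (limma adjusted p = 0.818). Ccng1, cyclin G1, rose by 0.36 and lost its call without each of the 6 arrays. None of 29 cell cycle genes was called (median 0.10), and of 29 DNA repair genes only Lig3, a DNA ligase, changed, by -0.66. Neither count was above the share over all genes. None of the 4 tested genes of DEN activation was called; Cyp2e1 had 28287, 28834 and 27752 with DEN and 28423, 25414 and 30423 at 4 weeks, a difference of 0.01 (adjusted p = 0.954).

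Fetal liver and tumour markers gave 2 rises among 19 genes, beside 4.32% of all genes called higher. Afp, the fetal albumin and a marker of liver tumours, had 20.3, 49.9 and 66.4 in the DEN arrays and 9.60, 9.67 and 19.9 at 4 weeks, low signals throughout. All 3 DEN values lay above the younger ones, the lowest of them narrowly, with a difference of 1.02 (SE 0.28, adjusted p = 0.0266), or 1.36 without replicate 1 of the DEN group. The call was lost without replicate 1 or 2 of the 4-week group or 2 or 3 of the DEN group. Cd24a, a surface protein of progenitor and tumour cells, rose by 0.67 and lost its call without each of 5 arrays, replicate 1 of the DEN group among them (0.60, adjusted p = 0.126).

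The growth hormone and IGF axis held the extremes in both directions, with 3 rises and 4 falls among 18 genes and a median of -0.03. Cish, a feedback inhibitor that growth hormone induces through STAT5, had the largest rise of the called genes whose arrays did not overlap. It had 241, 319 and 406 in the DEN arrays and 57.5, 46.8 and 71.6 at 4 weeks, a difference of 2.16 (SE 0.26, adjusted p = 0.000104). Bcl6, a repressor that growth hormone lowers and that competes with STAT5 for its sites, had the largest fall (chromosome 16, 23965050 to 23988866). It had 119, 95 and 484 with DEN and 1098, 1078 and 1194 at 4 weeks, a difference of -2.54 (SE 0.36, adjusted p = 0.000423). Replicate 3 of the DEN group stood well above the other DEN arrays but below the younger ones; a second probe set of Bcl6 gave -0.87 (adjusted p = 0.0814). Onecut1, a hepatocyte transcription factor that growth hormone raises, had 176, 195 and 170 with DEN and 65.7, 68.0 and 53.3 at 4 weeks and rose by 1.33 (SE 0.23, adjusted p = 0.00161).

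Among hormones and their carriers, Igf1 rose by 0.36 (adjusted p = 0.0151) and 3 binding proteins, Igfbp1, Igfbp2 and Igfbp4, fell. Igfbp3, which carries most of the Igf1 in blood, gave 0.13 (adjusted p = 0.723). Igfbp2, abundant in young liver, had 3658, 5360 and 6020 in the DEN arrays and 8530, 8390 and 8465 at 4 weeks, a difference of -0.78 (SE 0.14, adjusted p = 0.00199). The younger arrays were nearly equal and all above the DEN arrays. Igfbp1, which insulin represses, had 4144, 2451 and 1161 with DEN and 5836, 5590 and 5266 at 4 weeks, a difference of -1.28 (SE 0.36, adjusted p = 0.0291), and -0.80 without replicate 3 of the DEN group (adjusted p = 0.148). Igfbp4 fell by 0.37. Ghr, the growth hormone receptor, gave 0.04 (adjusted p = 0.823), and Socs2, another STAT5 target, gave 1.02 without passing the test (adjusted p = 0.0737). Male-biased genes of the liver, which the pulsed hormone of males maintains, gave no call among 20. Without replicate 1 or 3 of the 4-week group, or 2 of the DEN group, 4 members of the axis were called. Cish and Bcl6 were the 2 of 7 called members whose promoter held the GAS element to which STAT factors bind (TTCNNNGAA, both strands), against 8.47% of all promoters. The promoter of Cish is shown because it holds 2 copies of the element at and just after the start (RefSeq, GRCm38.p6, chr9:107296409-107296708, plus strand), in capitals at 0 to 8 and 11 to 19, counted from 0 at the start.
Cish: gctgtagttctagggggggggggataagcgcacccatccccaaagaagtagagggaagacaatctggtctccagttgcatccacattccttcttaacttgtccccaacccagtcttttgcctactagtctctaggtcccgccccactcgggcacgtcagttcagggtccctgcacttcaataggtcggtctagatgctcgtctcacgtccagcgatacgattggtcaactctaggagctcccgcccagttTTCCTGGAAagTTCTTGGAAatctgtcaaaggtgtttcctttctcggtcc

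Of 16 core clock genes tested, 7 fell and 1 rose. Of all 16 differences 10 were negative and 6 positive, with a median of -0.38. Arntl (Bmal1), the positive arm of the clock, had 151, 141 and 70.3 in the DEN arrays and 213, 244 and 215 at 4 weeks, a difference of -0.87 (SE 0.21, adjusted p = 0.0132); without replicate 3 of the DEN group it was -0.57 (adjusted p = 0.062). Rora, the nuclear receptor that activates Arntl, had 640, 581 and 686 with DEN and 987, 947 and 1007 at 4 weeks, a difference of -0.62 (SE 0.11, adjusted p = 0.00262). Rora kept its call when each of the 6 arrays was left out. Npas2, Per1 and Cry1, a partner of Arntl and repressors of the pair, fell by 0.97, 0.82 and 0.63, and Csnk1d and Clock by 0.49 and 0.42; Nr1d2, a repressor of Arntl, rose by 0.37. The repressors Per2, Per3 and Ciart gave 0.48, 0.63 and 0.76 without passing the test (adjusted p = 0.291, 0.14 and 0.262).

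Clock output was mixed, with 3 rises and 1 fall among 11 genes. Dbp, a clock-driven factor with a steep daily rhythm, had 527, 219 and 1351 in the DEN arrays and 187, 189 and 179 at 4 weeks. The DEN arrays were spread over a wide range, and the rise of 1.48 (SE 0.42, adjusted p = 0.0336) dropped to 0.83 without replicate 3 (adjusted p = 0.172). Nfil3, which opposes Dbp at its sites, fell by 0.62. Left out in turn, the 6 arrays gave 3 to 5 called core clock genes, 3 of them without replicate 1 of the 4-week group. The E-box CACGTG, to which Arntl and Clock bind, lay in the promoter of Per1 and Cry1, 2 of the 7 called members with a promoter, against 7.24% of all. The promoter of Cry1, which feeds back on both, is shown with its E-box in capitals at -60 to -55 (RefSeq, GRCm38.p6, chr10:85185005-85185304, minus strand).
Cry1: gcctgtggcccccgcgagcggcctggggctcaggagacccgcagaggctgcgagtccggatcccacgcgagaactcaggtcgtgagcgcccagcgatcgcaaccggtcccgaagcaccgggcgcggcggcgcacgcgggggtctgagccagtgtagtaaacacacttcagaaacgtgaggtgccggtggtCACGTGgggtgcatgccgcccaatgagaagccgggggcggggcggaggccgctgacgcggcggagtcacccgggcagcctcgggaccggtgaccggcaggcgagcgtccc

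In bile acid synthesis 1 of 13 genes was called, and in bile acid transport and sensing 1 of 16 rose and 3 fell. Over all genes 4.32% were called higher and 4.47% lower. Cyp7a1 (chromosome 4, 6265612 to 6275632), which sets the pace of bile acid synthesis from cholesterol, had 749, 1103 and 557 in the DEN arrays and 228, 188 and 202 at 4 weeks. All DEN arrays were above the younger ones, with a difference of 1.83 (SE 0.23, adjusted p = 0.000157). Nr0b2 (SHP), a repressor of Cyp7a1, had 710, 553 and 320 with DEN and 949, 1119 and 1268 at 4 weeks, a difference of -1.11 (SE 0.25, adjusted p = 0.0101). Fgfr4, the receptor through which gut Fgf15 lowers Cyp7a1, fell by 0.40 and Abcb11, the canalicular export pump, by 0.34. Slc10a1, which takes bile acids up from blood, rose by 0.45.

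In cholesterol synthesis 3 of 18 genes rose and none fell, 17 differences were positive and the median was 0.21. Fdps, which makes farnesyl diphosphate, had 3250, 3006 and 2114 in the DEN arrays and 946, 1335 and 1156 at 4 weeks and rose by 1.26 (SE 0.25, adjusted p = 0.00495). Mvk, mevalonate kinase, rose by 0.88 and Msmo1, a sterol methyl oxidase, by 0.86. Without replicate 1 of the 4-week group or 2 of the DEN group, 1 member was called. In fatty acid synthesis 2 of 23 genes rose and 1 fell, beside 4.32% and 4.47% of all genes, so the list's counts were near the background. Thrsp, a nuclear protein that promotes lipogenesis, had 7094, 4575 and 4043 with DEN and 2663, 2600 and 2533 at 4 weeks, a rise of 0.96 (SE 0.20, adjusted p = 0.00566). Mlxipl (ChREBP), the glucose-sensing activator of the same pathway, had 1813, 1469 and 1969 with DEN and 3518, 2848 and 3060 at 4 weeks, a difference of -0.84 (SE 0.12, adjusted p = 0.00047).

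Alas1, the rate-limiting enzyme of heme synthesis, had 4406, 2608 and 2825 in the DEN arrays and 1130, 1256 and 1335 at 4 weeks. Each DEN value was far above each younger one, with a rise of 1.36 (SE 0.22, adjusted p = 0.00124), and Blvra and Blvrb, biliverdin reductases, rose by 0.36 and 0.33, so that 3 of 12 genes of heme turnover rose. In the list of phase II and NRF2 genes 4 of 33 rose, all of them glutathione transferases: Gsta3 (12435, 11785 and 10896 with DEN, 7351, 8867 and 8214 at 4 weeks), Gstz1, Gstt3 and Gstk1, by 0.52, 0.51, 0.37 and 0.33. The rise of Gsta3 rests on that probe set, and its other tested probe set gave 0.09 (limma adjusted p = 0.666). Gclc, which makes the first step of glutathione, fell by 0.55 (3291, 3257 and 3717 with DEN, 5089, 4893 and 5094 at 4 weeks). Without replicate 1 of the 4-week group 1 member was called. Over all genes 4.32% were called higher and 4.47% lower. Of 21 genes of gluconeogenesis and fasting, 3 fell and none rose; Tat, tyrosine aminotransferase, had 6700, 3861 and 3191 with DEN and 9466, 10192 and 9813 at 4 weeks, a difference of -1.17 (SE 0.27, adjusted p = 0.0121).

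Hepatocyte transcription factors moved both ways, with 3 rises and 3 falls among 17. Hhex (chromosome 19, 37434841 to 37440731), a homeobox factor of liver development, had 1097, 973 and 1460 in the DEN arrays and 407, 387 and 406 at 4 weeks. The younger arrays were nearly equal and the lowest DEN array was far above them, with a rise of 1.5 (SE 0.17, adjusted p = 0.000104). Hnf4a, a master regulator of hepatocyte identity, had 4580, 4039 and 4144 with DEN and 5955, 5640 and 5604 at 4 weeks, a difference of -0.43 (SE 0.08, adjusted p = 0.00247). The fall of Hnf4a rests on that probe set. Its other tested probe sets gave -0.26, -0.02 and 0.62, none called (adjusted p = 0.209, 0.947 and 0.0833). Zbtb20, which silences Afp after birth, gave -0.67 (1316, 1221 and 1622 with DEN, 2221, 2079 and 2290 at 4 weeks; adjusted p = 0.000695).

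In the list of bone morphogenetic protein (BMP) and TGF-beta signalling, which holds targets, ligands, receptors and Smads, 5 of 21 tested genes fell and none rose. Of the 21 differences 15 were negative and 6 positive, with a median of -0.15. Id1, an inhibitor of basic helix-loop-helix factors, had 305, 370 and 195 in the DEN arrays and 842, 787 and 729 at 4 weeks, a difference of -1.43 (SE 0.19, adjusted p = 0.000264) that kept its call with the Gapdh ratio as a covariate. Skil, Bmp2, Smad1 and Id3 fell by 0.66, 0.61, 0.56 and 0.45. Bmp2 encodes a ligand of the pathway and Smad1 its signal carrier. Other tested probe sets gave -0.41 for Skil and -0.26 and -0.04 for Smad1, none called (limma adjusted p = 0.548, 0.124 and 0.915). The feedback inhibitors Smad6, Smad7 and Bambi gave -0.15, -0.58 and -0.18 without passing the test (adjusted p = 0.686, 0.133 and 0.652). In the Notch list Hes1, a repressor that Notch induces, had 76.8, 97.6 and 46.5 with DEN and 191, 209 and 171 at 4 weeks, a difference of -1.24 (SE 0.22, adjusted p = 0.00245). Sox9, a biliary and progenitor factor, fell by 0.92, and Hes6, which opposes Hes1, rose by 0.35, the 3 calls among 16 genes. Ngfr had 5.74, 6.59 and 3.45 with DEN and 41.7, 36.5 and 46.9 at 4 weeks, a difference of -1.44 (SE 0.22, adjusted p = 0.000905). Its DEN signals were low, under the medians of those arrays (25.1, 27.9 and 24.5). In iron and metal handling Scara5, a ferritin receptor, had 304, 221 and 135 with DEN and 503, 572 and 500 at 4 weeks. Its difference was -1.26 (SE 0.27, limma adjusted p = 0.00697), and a second, dim probe set gave -0.004 (adjusted p = 0.995). Slc39a14, a zinc and iron importer, fell by 0.49. Its other tested probe sets gave -0.595, -0.16 and -0.05, none called (adjusted p = 0.138, 0.737 and 0.918). Hamp, the iron hormone hepcidin, gave -0.19 (adjusted p = 0.382).

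Without replicate 1 of the DEN group, the array with adrenal and adipose transcripts, the endoplasmic reticulum stress genes gave 7 falls (median -0.30) and the immediate early genes 7 (-0.37). The core clock gave 5 falls and no rise (-0.32), the interferon list 9 rises and 2 falls, and the growth hormone and IGF axis 4 of each. Antigen presentation gave 3 rises, cholesterol synthesis 2 rises and 1 fall, and the BMP and TGF-beta list 4 falls. Clock output gave 2 rises and 4 falls in place of 3 and 1, with a median of -0.04. Gluconeogenesis and fasting gave 6 falls in place of 3, and the macrophage genes 16 rises in place of 13. Among the genes described above that the rule named, the call was lost for Npas2 (-1.05, adjusted p = 0.0627), Nr1d2 (0.39, 0.0639), Dbp (1.5, 0.0646), Sesn2 (-0.89, 0.0758), Sox9 (-0.84, 0.0573), Id3 (-0.33, 0.136), Lig3 (-0.52, 0.0646), Msmo1 (0.73, 0.11), Abcb11 (-0.25, 0.0951), Blvra (0.41, 0.0531), Gsta3 (0.48, 0.0514), Gstt3 (0.32, 0.107), H2-Aa (0.43, 0.0906) and Anxa5 (0.33, 0.103), each with its difference and its adjusted p, and for Ccng1 and Cd24a. With the Gapdh ratio as a covariate, called members stayed in the growth hormone and IGF axis (Cish), the BMP and TGF-beta list (Id1), the endoplasmic reticulum stress genes (Dnajb9) and the stellate cell genes (Ngfr); the medians were -0.22 for the endoplasmic reticulum stress genes and -0.27 for the core clock.

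The same change was measured in wild-type livers on 6 other arrays. There 1190 of 27022 probe sets differed (4.40%) and 608 of 12896 genes (4.71%), 293 higher (2.27%) and 315 lower (2.44%). Tested directly, the knockout change minus the wild-type change was called for 206 probe sets (0.762%) and 139 genes (1.08%), 67 of them positive (0.520%) and 72 negative (0.558%). Those 206 fell to 19 without the intensity trend in the limma fit and to 36 when the saline arrays were left out of it. The Gapdh ratio was 1.13, 1.09 and 1.02 in the wild-type DEN arrays and 1.13, 2.19 and 1.29 at 4 weeks. These groups met at 1.13, where the knockout-labelled groups stood apart. The Actb ratio was 3.21, 3.37 and 2.89 in the wild-type DEN arrays and 3.44, 7.28 and 3.79 at 4 weeks. By that ratio the wild-type groups did not overlap either.

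Scara5 and Id1 changed in opposite directions in the 2 genotypes. Scara5 had 278, 308 and 721 in wild-type DEN arrays and 27.9, 38.6 and 33.2 in wild-type 4-week arrays, a rise of 3.07, and the difference between the changes was -4.33 (SE 0.38, limma adjusted p = 4.24e-06). With DEN the genotypes lay close, at -0.87 for knockout minus wild type, and at 4 weeks far apart, at 3.46. Id1 had 250, 225 and 259 in wild-type DEN arrays and 163, 95.1 and 133 at 4 weeks, a rise of 0.86, and the difference between the changes was -2.29 (SE 0.27, adjusted p = 0.000309). Its knockout minus wild-type difference was 0.19 with DEN and 2.48 at 4 weeks. Id3 (-1.26) and Id2 (-1.04), relatives of Id1, differed on the same side.

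Cyp7a1 ran the other way. It had 718, 286 and 576 in wild-type DEN arrays and 1390, 1082 and 1283 in wild-type 4-week arrays, where it fell by 1.31, and the difference between the changes was 3.15 (SE 0.33, adjusted p = 5.96e-05). The knockout minus wild-type difference was 0.63 with DEN and -2.51 at 4 weeks. Hhex had 1089, 1846 and 1225 with DEN and 1271, 1073 and 1328 at 4 weeks in wild-type livers, a change of 0.15, against 1.5 in knockout-labelled livers (difference 1.35, adjusted p = 0.0111). Tyrobp had 271, 351 and 454 with DEN and 393, 326 and 356 at 4 weeks in wild-type livers, and its changes differed by 1.25 (adjusted p = 0.0111). Again the DEN arrays of both genotypes overlapped, and it was the 4-week arrays that stood apart, by -1.57 for Hhex and -1.14 for Tyrobp. Ngfr had 48.3, 67.2 and 39.8 with DEN and 54.1, 30.7 and 53 at 4 weeks in wild-type livers. For Ngfr, a dim gene, the genotypes differed with DEN instead, by -1.66, and by -0.08 at 4 weeks.

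By list, 3 of the 26 macrophage genes (Tyrobp, Lyz1 and Lyz2) had a change that differed between genotypes, all higher in the knockout-labelled livers; in wild-type livers none was called and the median was 0.075. The summed macrophage signal was 11177 to 15257 in wild-type DEN arrays and 12443 to 13152 in wild-type 4-week arrays, both close to the knockout DEN range of 11896 to 16297. In cholesterol synthesis 7 of 18 changes differed, all toward the knockout-labelled livers, where 3 genes rose; 9 fell in wild-type livers. For the endoplasmic reticulum stress genes the wild-type counts were 2 higher and 1 lower, beside 2.27% and 2.44% of all genes. Their difference between genotypes was called for Syvn1 alone (-1.05, limma adjusted p = 0.0346). For the immediate early genes it was called for 1 of 22, and for the growth hormone and IGF axis for none. There the wild-type livers gave values of the same sign for the leading genes: Cish had 1.77, Onecut1 1.82 and Igf1 0.41, all called, and Bcl6 had -0.76 without passing the test.

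**Figure D5:**
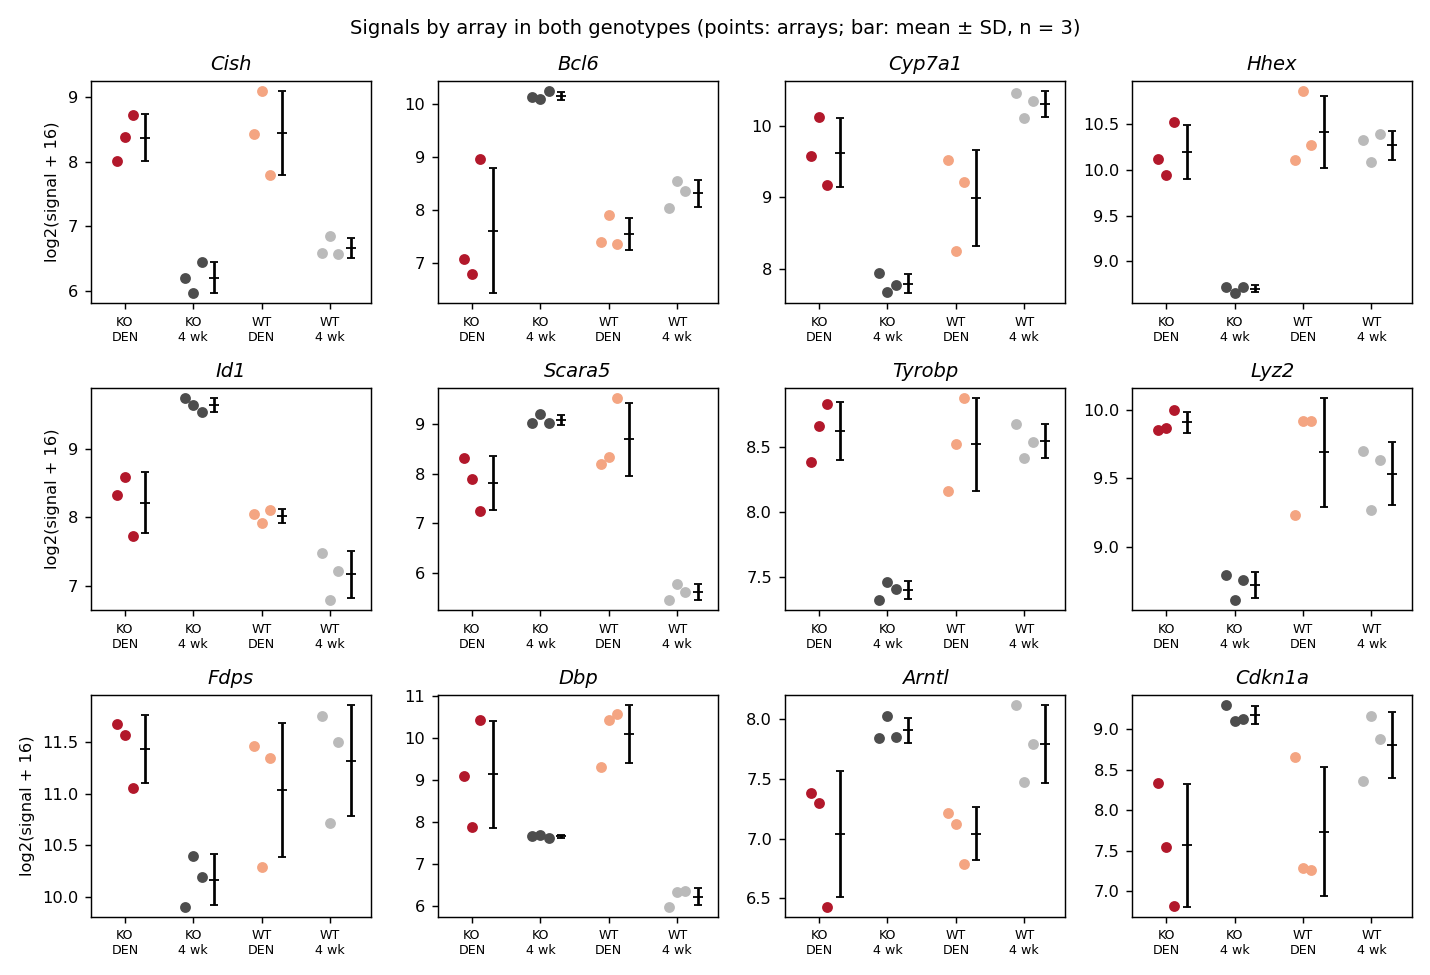
Points are log2(signal + 16) of single arrays and bars the mean ± SD (n = 3) for 12 genes in knockout DEN, knockout 4-week, wild-type DEN and wild-type 4-week livers (KO and WT on the axes; each panel has its own vertical range). For Cyp7a1, Hhex, Id1, Scara5 and Tyrobp the knockout and wild-type DEN arrays lie closer to each other than the 4-week arrays do, while Cish is higher with DEN than at 4 weeks in both genotypes.

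Saline-injected knockout-labelled livers stand between the compared groups in design, but their arrays have another signal range (the highest signal was 18609 to 20745, against 48393 to 59876 in the compared groups), and both saline comparisons share arrays with the one described. Their quantile-normalized values are given side by side only. Cish gave 1.42 for saline minus 4 weeks and 0.75 for DEN minus saline. Hhex gave 1.22 and 0.28, Cyp7a1 1.19 and 0.66, and Tyrobp 0.88 and 0.37 in the same order. For these 4 genes the saline livers lay nearer to the DEN livers. Bcl6 gave -0.52 for saline minus 4 weeks and -2.01 for DEN minus saline (limma adjusted p = 0.00101), and Id1 gave -0.35 and -1.06 (adjusted p = 0.00154 for DEN minus saline, as in the next sentence). Syvn1 gave -0.43 and -0.75 (adjusted p = 0.00465), Lyz2 0.45 and 0.74 (adjusted p = 0.00514) and Alas1 0.50 and 0.78 (adjusted p = 0.0310). For these 5 the larger value was that of DEN minus saline. The genes of this paragraph were picked from the named genes without a fixed rule, so they do not form 2 classes. Without replicate 2 of the saline group, the array with adrenal and adipose transcripts, the 4 genes gave 1.14 to 1.39 for saline minus 4 weeks in Cish, Hhex and Cyp7a1 and 0.88 in Tyrobp, and the 5 gave adjusted p-values of 0.00148 to 0.0134 for DEN minus saline. Alas1 then gave 0.18 for saline minus 4 weeks and 1.1 for DEN minus saline, and saline minus 4 weeks was -0.25 for Bcl6 and -0.23 for Id1. In that fit DEN minus saline was not called for Cish, Hhex, Cyp7a1 or Tyrobp (limma adjusted p = 0.114, 0.402, 0.115 and 0.235). Saline minus 4 weeks was not called for the 5 genes (limma adjusted p from 0.267 to 0.822). A value short of the threshold does not show that there is no difference.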

How the data were processed

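Liver RNA was measured on 18 Affymetrix Mouse430_2 arrays. The deposited values are linear intensity values, 1 per probe set and array, made with MAS5 per the submitters' processing notes (version not given in the sources used here). Each array's mean after trimming 2 percent at either end was 150. Precision is limited by the number of arrays, since an array has no count or depth.

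Without 64 control probe sets, the signals were transformed as log2(signal + 16). The 27022 probe sets whose mean over all arrays reached the 40th percentile entered a linear model with 1 coefficient for each of the 6 groups (limma 3.58.1, R 4.3.3; lmFit, then eBayes with trend; Benjamini-Hochberg threshold 0.05). In simulated data on the 27022 probe sets, the fit recovered 12, 66, 100 and 100% of changes of 0.5, 1, 2 and 3 on the log2 scale in the knockout comparison. There 50 probe sets were changed by each size, with independent normal noise and no difference in RNA integrity between the groups. The real comparison called more probe sets, so these shares are not its power. Of 45037 probe sets, 34945 map to 1 gene, 932 to several and 9160 to none in the platform annotation; a gene is represented by its tested probe set of highest mean (12896 genes), with positions from RefSeq, GRCm38.p6.

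Named genes are Hmgn1, Cyp2e1 and Afp, the 15 largest rises and falls among called genes without overlap, the 10 genes in each direction with the smallest p for the genotype difference, and, of each of 51 gene lists, up to 5 called members with the largest difference and the 2 of highest mean. Other members of a list, Socs2, Timd4 and Ccr2 among them, the transcripts of neighbouring tissues, gene families by symbol, and promoter motifs were chosen after values were seen. Leaving out replicate 2 of the knockout saline group was chosen after seeing the data. The comparison and the lists were chosen with earlier results of these data known.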

Additional observations from a re-analysis of the deposited data

Results flagged for a closer look

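For 32 of the named genes the change with DEN differed between knockout-labelled and wild-type livers in the limma test of that difference (206 of 27022 probe sets, 0.762%); the values below are the knockout change minus the wild-type change on the log2 scale.

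In negative direction, Scara5 (-4.33) and Id1 (-2.29) led, followed by Hes1 and Ngfr (-1.57 each), Slc22a7 (-1.53), Egfr (-1.38), Ugt2b38 (-1.36), Il1r1 (-1.32), Map3k5 (-1.27), Id3 (-1.26), Med18 (-1.17), Syvn1 (-1.05), Id2 (-1.04), Garem1 (-0.88), Cyp2c70 (-0.79), Slc39a14 (-0.76) and Hnf4a (-0.59). Egfr, the epidermal growth factor receptor, had 2777, 5770 and 4280 in knockout DEN arrays and 6104, 6007 and 6102 in knockout 4-week arrays, and 2861, 3650 and 3317 in wild-type DEN arrays against 1935, 1762 and 1852 in wild-type 4-week arrays. Its knockout change of -0.57 was -0.29 without replicate 1 of the knockout DEN group (limma adjusted p = 0.216). The other tested probe sets of Egfr disagreed in sign for the knockout change. One gave -0.87 (limma adjusted p = 0.0224), and the rest, not called, gave -0.30, -0.25, 0.07 and 0.10. Slc22a7, an organic anion transporter, had 336, 356 and 369 in knockout DEN arrays and 537, 431 and 482 in knockout 4-week arrays, and 469, 414 and 433 in wild-type DEN arrays against 194, 203 and 189 in wild-type 4-week arrays. Ugt2b38, a glucuronosyltransferase, changed by -0.03 in knockout-labelled livers and by 1.33 in wild-type livers.

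In positive direction, Cyp7a1 (3.15) led, followed by Fdps (1.55), Hmgcs1 (1.48), Aqp8 (1.41), Hhex (1.35), Lyz1 (1.31), Tyrobp (1.25), Lyz2 (1.03), Pxdc1 (0.96), Psmb9 (0.83), Acot13 (0.80), Dcn (0.77), Atp6v1h (0.64), Blvrb (0.58) and Hes6 (0.52). Aqp8, a hepatocyte water channel, had 1419, 2193 and 1488 in knockout DEN arrays and 1156, 1276 and 1290 in knockout 4-week arrays, and 1413, 949 and 1438 in wild-type DEN arrays against 2919, 1962 and 2640 in wild-type 4-week arrays. Hmgcs1, which makes HMG-CoA for cholesterol, changed by 0.09 in knockout-labelled livers and by -1.39 in wild-type livers. Pxdc1 changed by -0.04 in knockout-labelled livers and by -1.0 in wild-type livers, where 748, 791 and 797 with DEN stood against 1562, 1558 and 1592 at 4 weeks.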

How the results depend on the processing

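The knockout comparison called 2226 probe sets, 1323 without the intensity trend, 1482 with the compared arrays alone, 1052 without the 6 saline arrays, 8 with the Gapdh ratio as a covariate, and 784 to 1911 with single arrays left out. It called 784 without replicate 1 and 1032 without replicate 3 of the 4-week group, and 1049 without replicate 2 of the DEN group. The 2 fits without replicate 2 of the knockout saline group, added after seeing the data, gave 2053 and 1663. The wild-type comparison called 1190, 693 with array quality weights, 556 without the trend, 199 with the compared arrays alone, 442 without the saline arrays, 240 with the covariate, and 462 to 1469 with single arrays left out. The genotype difference called 206, 101 with array medians centred, 120 without a filter, 19 without the trend, 36 both with the compared arrays alone and without the saline arrays, and 61 to 354 with single arrays left out. The causes were not tested. Centred medians moved the higher share of calls to 17.3% from 44.6% in wild type and to 75.2% from 48.5% in the genotype difference; the other counts stayed within 1.5 times. Same-numbered arrays did not deviate together (r from -0.0182 to 0.0391), so the samples were not treated as paired. With 3 arrays per group this does not settle whether the numbers carry a pairing. A replicate block gave 2023, 1100 and 184 calls. Some signs turned with the probe set: as the mean of a gene's probe sets, Dcn gave -0.16, Garem1 0.0038 and Slco1b2 0.38; without cross-hybridising probe sets, Hmgn1 gave 0.46, Lyz1 -0.55, Rpl13a 0.38 and Rpl41 -0.57. Among the single-gene results under alternatives, 4113 stayed on their side of the threshold, 540 lost the call and 27 gained it. These 7 turned in sign with a call in at least 1 of the 2 fits. A turn with no call in either fit is counted among the 4113. Apex1 is such a case, at -0.20 and, with the Gapdh ratio as a covariate, 0.28. Signals near background limit dim genes.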

Other observations

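Some large gene families moved together by small steps; they were picked by symbol after values were seen and were not tested as sets. Of 76 mitochondrial ribosomal proteins, 22 rose and none fell with DEN in knockout-labelled livers (median 0.22), as did 11 of 48 cytosolic ribosomal proteins (0.21), 12 of 42 complex I subunits (0.17), 4 of 17 ATP synthase subunits (0.20) and 5 of 22 mitochondrial import proteins (0.24), with none lower, beside 4.32% of all genes called higher, 4.47% lower and a median of 0.00. Of 49 proteasome genes, 13 rose and 1 fell (0.19). Chromatin modifiers gave 9 falls and no rise among 55 genes (-0.23), and splicing factors 8 falls and no rise among 28 (-0.19). The wild-type counts were 2 higher and 1 lower for the mitochondrial ribosomal proteins, 2 and 1 for the proteasome and 0 and 1 for the chromatin modifiers. Over all genes in wild type, 2.27% were called higher and 2.44% lower. Without replicate 2 of the DEN group 9 mitochondrial ribosomal proteins were called, and 2 cytosolic ones. The Gapdh 3′ to 5′ ratio, 0.907 to 0.937 with DEN and 1.35 to 1.70 at 4 weeks, moved with these shifts. With it as a covariate no member of these families was called. The medians were then 0.15 each for the mitochondrial and cytosolic ribosomal proteins and complex I, 0.17 for ATP synthase, 0.08 for mitochondrial import, 0.09 for the proteasome, -0.10 for the chromatin modifiers and -0.17 for the splicing factors.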
